A study of Mus musculus with 4 samples.

Results

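Nuclei of mouse kidney were grouped by the authors into 23 clusters, and the cluster described here is the one with the highest mean level of Csmd1, which the authors named MC, for mesangial cells. It holds 4 of the 92 columns of the deposited table, 1 for each mouse. Csmd1 was the only value used to choose it. The level of Csmd1 was 16.6 in the control mouse, 16.9 in the control mouse with AAI, 8.42 in the OE mouse and 18.3 in the OE mouse with AAI, with a mean of 15.1. The next cluster, EC-2, had a mean of 2.19. Csmd1, which encodes a large membrane protein with complement control domains, lies on the minus strand of chromosome 8 of GRCm38, from 15892537 to 17535586. A level is the mean over the nuclei of 1 cluster in 1 mouse of the counts per 10000 counts of each nucleus.

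The 4 conditions were compared with 1 male mouse of mixed strain in each: control, control with AAI, OE and OE with AAI. All 4 mice carried TRE-hKLF6, a human KLF6 transgene that is silent without a transactivator. The OE mice also carried CAG-rtTA, which drives that transgene throughout the body under doxycycline, so the overexpression was not limited to this cluster. All were fed doxycycline. AAI is aristolochic acid I, a plant toxin that damages DNA, chiefly in the proximal tubule, and the labels give the treatment of the other mice as none. KLF6 is a zinc finger transcription factor induced early in injury. Kidney cortex was the tissue, and RNA of nuclei, introns included, was counted.

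Mesangial cells are the contractile stromal cells that hold the capillary loops of the glomerulus together. They make mesangial matrix, respond to angiotensin II and nitric oxide, and depend on PDGF-B from the endothelium acting on PDGFRB. Pericytes, fibroblasts, vascular smooth muscle and renin cells share much of this gene programme, so few genes separate mesangial cells from other stromal cells.

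Each condition has 1 mouse. No test between conditions was run, and no p-value or error over mice is given. A difference is a difference of log2(level + 1). A gene was compared where the larger of the values was at least 0.5, and it was called higher or lower from a difference of 0.5. Values of the 4 mice are listed in the order control, control with AAI, OE, OE with AAI. In these columns 36.4% to 40.1% of the 19609 genes were at 0, against 15.1% in the PT-S3-1 column of the control mouse. The smallest values above 0 in the 4 columns put at most 37.8 to 62.8 transcripts behind a level of 0.5, so genes near that level rest on few counts.

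The column of the OE mouse without AAI stood apart from the other 3. The summed level of 76 cytosolic ribosomal protein genes was 48.9, 69.0, 106 and 70.8, and that of the 13 mitochondrially encoded genes was 376, 290, 586 and 300. Both sums were highest in the OE mouse without AAI. The ratio of that mouse to the control mouse for the ribosomal sum was 2.17 in the Csmd1 cluster and 1.33 to 1.92 in the 15 other clusters outside the proximal tubule, so the excess was present in all of those clusters. This column enters the comparison of OE with control without AAI and that of AAI with none in OE mice. The comparison of AAI with none in control mice does not use it.

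In total, 82 genes were at least 0.5 above the highest other cluster by mean level, or 1.81% of the 4536 genes with a mean of at least 0.5. These 82 are called identity genes below. Since the clusters were made from the same nuclei, they are a description. Among the 20 with the largest excess were Csmd1, Kcnt2, Abca8a, Gucy1a2, Lama2, Cacna1c, Fhl2, B3galt1, Rerg, Lhfp, Ak5, Adam12, Cpm, Hsd11b1, Dgkb, Fbln5, Kirrel3, Serping1 and Gucy1a1. They stand for several stromal functions. Gucy1a2 and Gucy1a1 encode subunits of soluble guanylate cyclase, the receptor of nitric oxide, and Cacna1c the pore of the L-type calcium channel. Lama2 and Fbln5 encode a laminin chain and an elastic fibre protein, Serping1 encodes an inhibitor of complement proteases, and Hsd11b1 regenerates active glucocorticoid.

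**Figure D1:**
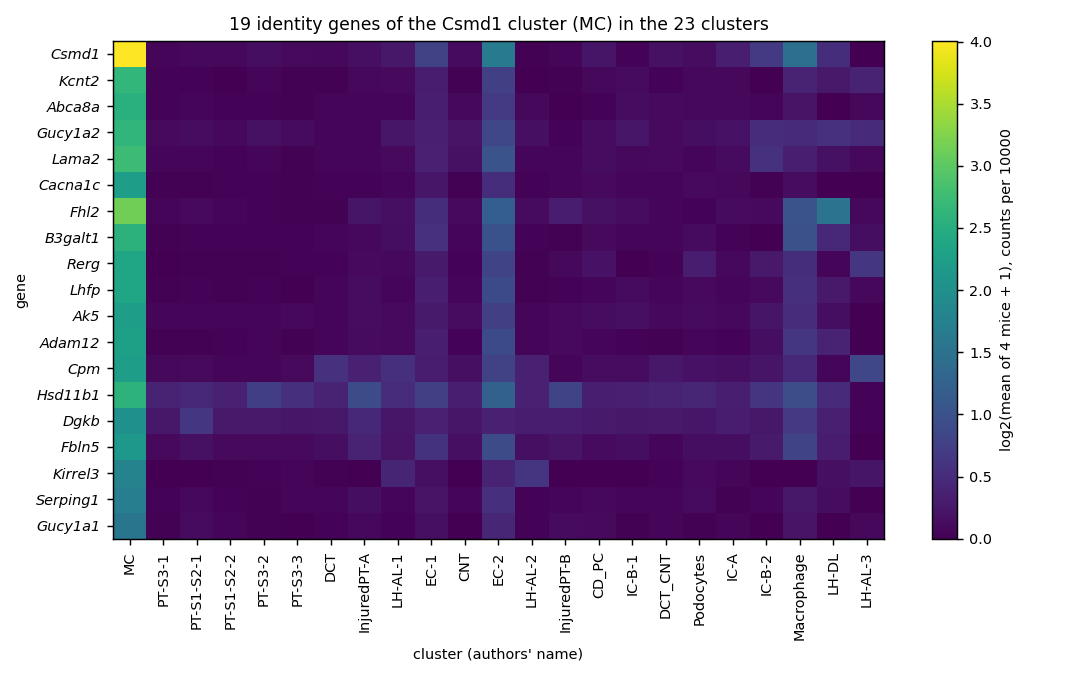
The heat map shows 19 of the 20 identity genes with the largest excess (rows) in the 23 clusters (columns, authors' names), as log2 of the mean level of 4 mice + 1. The MC column is the brightest in every row, from 15.1 for Csmd1 to 1.94 for Gucy1a1, and EC-2 is the next for most rows.

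Of the 82 identity genes, 61 were highest here in 4 of 4 mice, 20 in 3 and 1 in 2. Of all 4536 genes, 81 had their highest level of all 23 clusters in this cluster in 4 of 4 mice, and 77 more did so in 3. For 50 genes the lowest of the 4 values was above all 88 values of the other clusters. Abca8a, a lipid transporter, was 5.68, 5.58, 2.87 and 5.24. Lama2 was 5.86, 6.91, 3.00 and 7.09. Both were lowest in the OE mouse without AAI and well above the EC-2 means of 0.603 and 1.03. The next cluster was EC-2 for 42 of the 82 genes, LH-DL for 10, Macrophage for 8 and LH-AL-3 for 7. Kirrel3, a cell adhesion protein, varied among the mice, at 3.90, 0.828, 1.57 and 3.56.

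The second marker given for the cluster, Tshz2, a zinc finger factor, was 16.8, 20.4, 14.4 and 20.7. Its level was less particular to the cluster than that of Csmd1, with means of 15.7 in LH-DL and 12.2 in EC-2.

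The label was checked against marker lists of mesangial cells and of the other cells that a stromal cluster could hold. Of 18 mesangial markers in the table other than Csmd1, which chose the cluster, 7 were highest in this cluster by mean level, 4 of them with a mean of at least 0.5. Of all 19609 genes 6.56% were highest here, and of the 4536 genes with a mean of at least 0.5 the share was 8.18%. Pdgfrb, the receptor of PDGF-B, was 2.81, 1.91, 1.87 and 2.07, against 0.891 in the next cluster, LH-DL. Agtr1a, the angiotensin II receptor, was 2.67, 2.70, 1.58 and 1.62, with both OE mice below both control mice. Itga8, the integrin chain that marks mesangial cells, was 0.817, 1.55, 1.04 and 0.576, with a mean below the 1.19 of Macrophage. Gata3, a transcription factor of mesangial cells, was 0.159, 0.501, 0.437 and 0.183, and it was highest in the collecting duct cluster CD_PC at 2.94. The defining mesangial markers were therefore present in part only.

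Fibroblast and pericyte markers were at least as complete. Of 22 in the table, 15 were highest in this cluster, against 6.56% of all genes, and 9 were identity genes, among them Abca8a and Lama2. Pdgfra, the receptor that marks fibroblasts, was 1.87, 1.60, 0.966 and 1.11, against 0.196 in EC-2. Col1a2, a chain of fibrillar collagen I, was 0.625, 1.16, 0.453 and 1.66. Col14a1, a fibril-associated collagen, was 2.75, 3.45, 2.23 and 2.37. Smooth muscle and renin cell markers were highest here for 11 of 19. Ren1, which encodes renin, was 2.32, 0.748, 1.41 and 2.01, with no other cluster above a mean of 0.23. Acta2, smooth muscle actin, was 0.39, 0.40, 0.958 and 0, and Notch3, a receptor of mural cells, was 1.58, 1.14, 1.64 and 2.10. Markers of mesangial cells, fibroblasts and smooth muscle or renin cells thus stood in the same average, and the table does not hold single nuclei that would separate them. The cluster is called the Csmd1 cluster from here on.

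**Figure D2:**
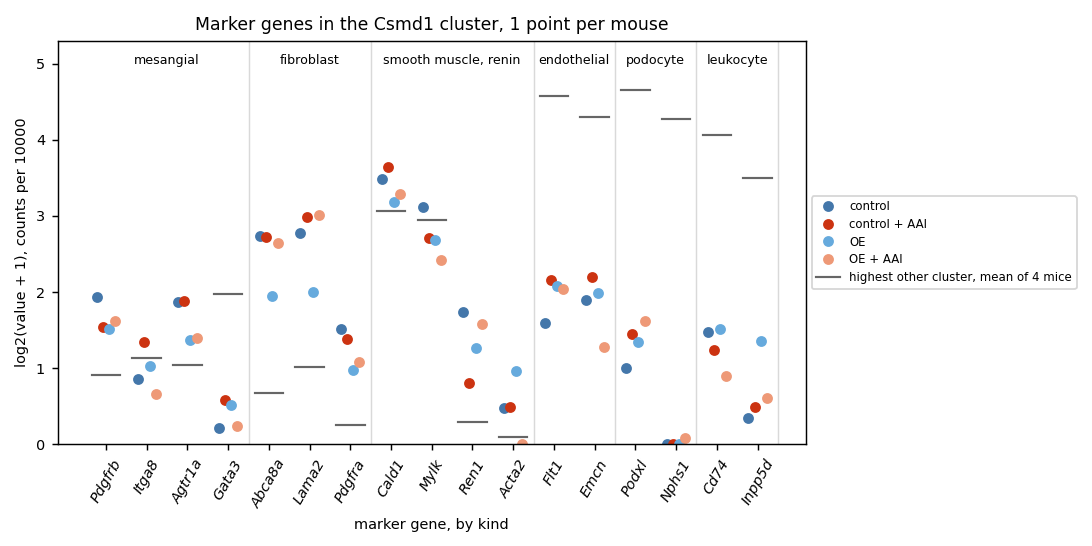
Points are the levels of marker genes in the Csmd1 cluster in each of 4 mice, as log2(level + 1), grouped by the cell type they mark, and grey bars are the mean of the highest other cluster. Pdgfrb, Agtr1a, Abca8a, Lama2, Pdgfra and Ren1 lie above the grey bar in all 4 mice, whereas Gata3, the endothelial, podocyte and leukocyte markers lie below it.

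Markers of neighbouring cells were low but not absent. The 16 endothelial markers summed to 14.4, 23.1, 22.5 and 23.5, against 109 to 127 in EC-2, and Flt1, a VEGF receptor, was 2.01, 3.45, 3.23 and 3.11, against a mean of 22.7 in EC-2. Of the 12 podocyte markers, 4 had a mean of at least 0.5. None was highest here, but for 2 of the 4 this cluster was among the 3 highest. Nphs1 (nephrin) was 0 in 3 mice and 0.0567 in the OE mouse with AAI. The 17 leukocyte markers summed to 5.56, 5.89, 7.59 and 5.04, against 62.9 to 78.1 in Macrophage, with Cd74, an antigen presentation chaperone, at 1.77, 1.36, 1.85 and 0.864. Glial and neural markers summed to at most 1.06. Of the 20 loop of Henle and distal tubule markers, 8 had a mean of at least 0.5, and for none of these was this cluster among the 3 highest. Proximal tubule markers were higher: their sum was 327, 263, 386 and 280, above the 86.8 to 195 of Podocytes in every mouse. Other clusters outside the proximal tubule had high sums too, with 374, 331, 321 and 272 in EC-1 and 321, 302, 278 and 235 in DCT_CNT. Kap, an androgen-regulated kidney protein of the proximal tubule, made up much of it at 140, 114, 219 and 126. Its mean in the 5 normal clusters of the proximal tubule was 56.0, below its level here in every mouse. The other 21 markers summed to 187, 149, 167 and 154.

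Contractile and vasoactive genes were followed next. Of all genes, 6.56% were highest in this cluster, and of those with a mean of at least 0.5, 1.81% were identity genes. Of 30 vasoactive receptors and cGMP pathway genes in the table, 10 were highest in this cluster and 5 were identity genes. Prkg1, the cGMP-dependent kinase, was 32.5, 23.5, 16.8 and 14.9, against a Podocytes mean of 35.8, and it was lower in both OE mice than in both control mice. Pde3a, a phosphodiesterase of cyclic nucleotides, was 8.49, 7.31, 3.1 and 5.56. Of 36 calcium handling and contraction genes, 11 were highest here and 2 were identity genes, with Cacna1c at 5.67, 2.58, 3.57 and 3.1. Of 53 laminin, matrix and integrin genes, 17 were highest here and 8 were identity genes, and of 29 collagen genes 13 were highest here. The basement membrane chains Col4a3 and Col4a4, which podocytes make, both ranked 20th of 23.

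The identity genes were long. Of the 81 with a genomic span in the annotation, 45.7% were over 100 kb, with a median of 95.5 kb, against 28.2% and 51.5 kb of all genes with a mean of at least 0.5. Among the 20 with the largest excess the share was 60%. The count of nuclear RNA includes introns, and the part that length plays in these levels was not tested.

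A motif bound by serum response factor, the CArG box, which is known from promoters of contractile genes, was searched on both strands in the 250 bases before each start. Of the 82 identity genes 55 matched a promoter, and 3 of these, Fhl2, Lama2 and Myl9, held the motif (5.45%), against 1.74% of the 3558 genes with a promoter and a mean of at least 0.5. In the list of calcium handling and contraction genes it was 7 of 30, and among smooth muscle and renin cell markers 0 of 15. Fhl2 encodes a LIM domain protein of muscle and a cofactor of this pathway, and Myl9 a myosin light chain of smooth muscle. The sequences, from RefSeq on GRCm38.p6 and written 5′ to 3′ on the strand of the gene, are shown because these 3 are the only identity genes with a match, and the capitals mark the CArG box. Fhl2 has a match at each of 2 starts.
Fhl2, chr1:43163962-43164027, minus strand: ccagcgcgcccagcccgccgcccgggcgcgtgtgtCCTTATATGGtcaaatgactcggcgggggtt
Fhl2, chr1:43196813-43196892, minus strand: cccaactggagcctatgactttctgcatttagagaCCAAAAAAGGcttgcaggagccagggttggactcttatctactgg
Lama2, chr10:27616943-27617016, minus strand: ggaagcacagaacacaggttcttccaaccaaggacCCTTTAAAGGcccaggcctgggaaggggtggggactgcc
Myl9, chr2:156775268-156775347, plus strand: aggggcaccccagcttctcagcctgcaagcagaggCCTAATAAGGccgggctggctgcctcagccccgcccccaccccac
The motif ends 22 and 87 bases before the start at Fhl2, 30 at Lama2 and 152 at Myl9. A match is a description of the sequence, and no binding was measured.

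The number of genes higher and lower with AAI was of the same order in both genotypes, and which was larger depended on centring. In control mice 613 of 5564 genes compared were higher (11%) and 448 were lower (8.05%). In OE mice 713 of 5559 were higher (12.8%) and 548 were lower (9.86%), and this comparison rests on the OE mouse without AAI. With differences centred on the median of all genes, 505 were higher and 543 lower in control mice, and 538 were higher and 719 lower in OE mice. Of 4642 genes compared in both genotypes, 115 were higher in both (2.48%), 62 were lower in both (1.34%) and 51 went opposite ways. The difference with AAI in control mice and that in OE mice, which share no sample, had a correlation across these genes of 0.19. Genes are not independent replicates.

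The genes with the largest rises in both genotypes were Ccng1, Chd9, Polr2a, Mdm2, Cdkn1a, Spag5, Bcl2l1, Gm28153, Gria3 and Nufip2. Ccng1, encoding the p53 target cyclin G1, was 0, 3.18, 0.384 and 3.16. Mdm2, the ligase that degrades p53, was 0.385, 3.79, 0.607 and 2.89. Cdkn1a, encoding the cell cycle inhibitor p21, was 0, 1.2, 0 and 1.47. The differences in control and OE mice, by which these 3 were chosen, were 2.06 and 1.59 for Ccng1, 1.79 and 1.27 for Mdm2 and 1.14 and 1.31 for Cdkn1a. Ccng1 and Mdm2 were also higher with AAI in both genotypes in 16 and 14 of the 23 clusters, this one included, and Cdkn1a in 6.

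Polr2a encodes RPB1, the largest subunit of RNA polymerase II. It was 1.15, 5.39, 1.10 and 4.44, differences of 1.58 and 1.38, and the OE mice did not differ from the control mice by 0.5 either without or with AAI. Chd9, a chromatin remodeler, was 3.49, 20.5, 3.65 and 11.7. Polr2a was the only one of the 13 subunit genes to be higher with AAI in both genotypes, and only 2 of the 13 were compared in both. It was higher in 5 of the 23 clusters, this one included, and Chd9 in 21. Klf6, the mouse gene, was 0.691, 2.85, 0.491 and 1.71. It was thus higher with AAI by 1.19 in control and 0.86 in OE mice, and lower in OE than in control mice by 0.18 without and 0.50 with AAI.

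Groups of injury genes, which hold some of the genes named above, were counted next. Of all genes compared in both genotypes, 2.48% were higher with AAI and 1.34% were lower. Among 34 p53 targets, 6 of the 16 compared in both genotypes were higher and none lower, with a summed level of 11.21, 33.0, 16.2 and 36.7. The list's median difference was 0.61 in control and 0.47 in OE mice, against 0.04 and 0.06 for all genes. Trp53inp1, a p53-induced regulator of autophagy, was 0.249, 2.62, 0.851 and 2.21. Of 27 AP-1 and immediate early genes, 4 of 9 compared in both were higher and none lower, among them Klf6. Egr1, an early growth response factor, was 1.28, 3.17, 0.323 and 2.99. Cytokine and adhesion genes were higher for 3 of 9 and lower for none: Stat3, the transcription factor downstream of IL-6 family receptors, was 2.52, 4.18, 0.980 and 3.36, and Cxcl1, a neutrophil chemokine, was 0, 0.765, 0 and 0.805.

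Of the stromal genes few were called in both genotypes, as of all genes (2.48% higher and 1.34% lower). No fibroblast or pericyte marker of 14 was called in both. In OE mice 6 of 15 of them were higher and 2 lower, against none of 14 in control mice. Of all genes, 12.8% were higher and 9.86% lower in OE mice, and 11% and 8.05% in control mice. The OE comparison rests on the OE mouse without AAI, where the sum of these markers was 0.647 of that in the control mouse. It was 0.951 in the OE mouse with AAI and 0.976 in the control mouse with AAI. Of 11 mesangial markers only Serpine2, a protease inhibitor, was higher, at 0.379, 1.25, 0.410 and 1.31. No collagen of 13 was called in both, with 5 of 16 lower in control mice and 3 of 15 higher in OE mice. Of 26 laminin, matrix and integrin genes only Lamc3, a laminin chain, was lower in both, at 1.08, 0.175, 1.76 and 0.295. Of 14 TGF-beta and fibrosis genes none was called in both. In control mice 3 of 20 of these were lower and 1 was higher, and in OE mice 3 of 15 were higher and 3 lower. Ctgf, a matrix protein induced by TGF-beta, was 4.53, 3.28, 3.76 and 1.76. Smad7, the inhibitor of that pathway, was 0.582, 2.00, 0.532 and 1.07. No G2/M or S phase gene of 30 reached 0.5 in any mouse.

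The genes with the largest falls with AAI in both genotypes were Inmt, Gm42397, Acy3, Rbfox1, Immp2l, Ass1, Ttc36, 2210408I21Rik, Ndrg1 and Lsamp. Inmt, an amine N-methyltransferase, was 4.45, 0.725, 6.19 and 1.02. Acy3, an aminoacylase of the proximal tubule, was 7.52, 2.99, 11.405 and 4.26. Ndrg1, a stress and hypoxia response gene, was 10.3, 5.09, 14.2 and 4.53. These were not particular to the cluster: Inmt was lower in 21, Acy3 in 14 and Ndrg1 in all 23 clusters in both genotypes. Of the 62 genes, 18 were lower in both genotypes in this cluster only and 22 in 10 or more clusters. Rbfox1, a neuronal splicing factor, at 6.57, 1.01, 2.81 and 0.804, was lower in 4 clusters, and Lsamp, a neural adhesion protein, at 2.13, 0.0917, 1.09 and 0.146, in this cluster only.

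**Figure D3:**
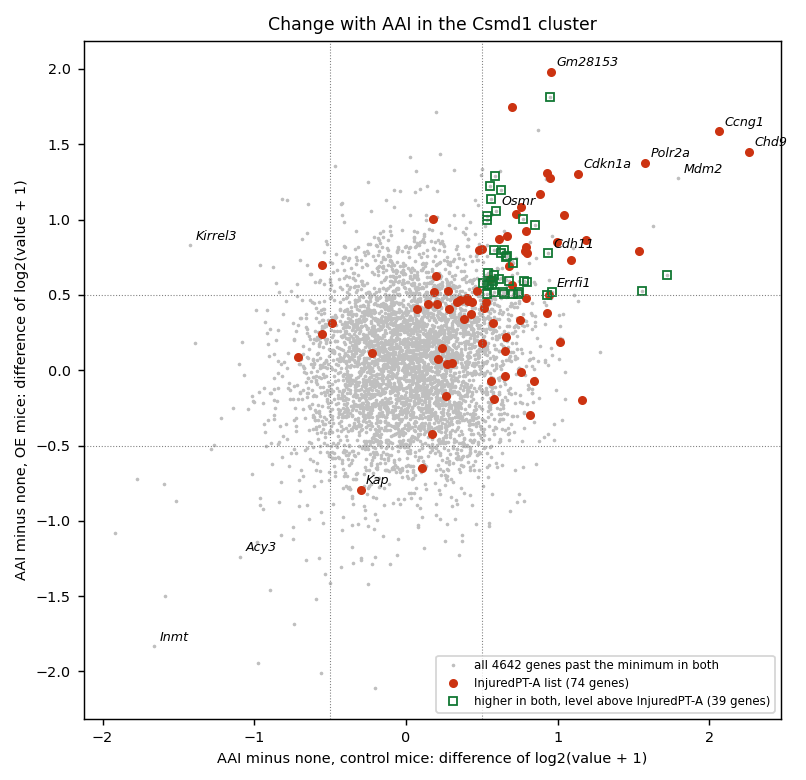
Each point is a gene of the Csmd1 cluster, placed by its difference of log2(level + 1) with AAI in control mice (x) and in OE mice (y), with dotted lines at 0.5 and -0.5. Of the genes on the InjuredPT-A list (red), 26 lie in the upper right corner with Ccng1, Chd9 and Polr2a, as do the 39 genes whose level was above that of InjuredPT-A (green squares), whereas Kirrel3, lower in control and higher in OE mice, lies in the upper left.

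Polr2a, Chd9 and Ccng1 are also on a list of genes of InjuredPT-A, the injured proximal tubule cluster of the AAI mice, and this list was followed in the Csmd1 cluster. The list holds the 100 genes with the largest excess of InjuredPT-A over 5 normal clusters of the proximal tubule, averaged, in both AAI mice, and no column of the Csmd1 cluster was used to choose it. Of its genes, 74 were compared in both genotypes, 26 were higher with AAI in both and none was lower, or 35.1% against 2.48% of all genes. In control mice 53 of 87 were higher and 3 lower, and the median difference was 0.58. In OE mice 34 of 78 were higher and 2 lower, and the median was 0.46. The 26 are also part of the 115 genes above, so 89 of the 115 were not on the list.

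The rise of each list gene was then set against its level in InjuredPT-A of the same AAI mouse. The median rise was 16.5% of the InjuredPT-A level in control mice, with quartiles of 9.23% and 23.03%, and 12.2% in OE mice, with quartiles of 4.54% and 18.5%. Polr2a rose by 17.5% and 14.3% of its InjuredPT-A level. Gm28153, a predicted gene, was 10.8 in InjuredPT-A of the control mouse and 37.1 in that of the OE mouse, and its rise in the Csmd1 cluster was 15.98% and 13.8% of these. Spag5, a spindle protein, was 10.6 and 23.5 in InjuredPT-A, and its rise was 21.5% and 12.7%. Both genes were higher in the OE than in the control mouse with AAI in InjuredPT-A and in the Csmd1 cluster alike. The rises were 52.5% and 50.7% for Ccng1 and 49.4% and 34.5% for Chd9, above the upper quartile in both genotypes.

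Among the 16 clusters outside the proximal tubule these medians were the highest in the Csmd1 cluster. EC-1 had 5.75% and 2.75%, and EC-2 had 5.18% and 6.18%. The number of list genes higher in both genotypes was also the highest, at 26 of 74 compared (35.1%). Next were LH-DL with 10 of 61 (16.4%), Macrophage with 10 of 60 (16.7%) and LH-AL-3 with 9 of 45 (20%). Of all genes, 2.48% were higher in both in the Csmd1 cluster, 4.99% in LH-DL, 5.44% in Macrophage and 7.82% in LH-AL-3. InjuredPT-B, the second injured tubule cluster, had medians of 13.6% and 12.4%. There 30 of 75 list genes compared were higher in both (40%), against 7.57% of all genes.

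**Figure D4:**
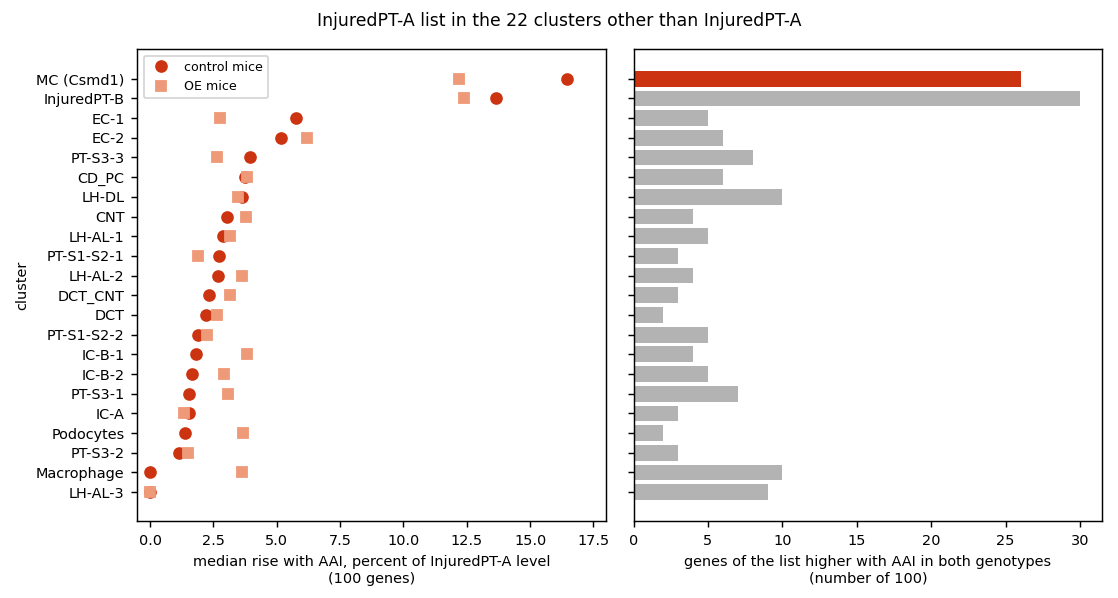
Left, the median over the 100 InjuredPT-A list genes of the rise with AAI, in percent of the level in InjuredPT-A of the same mouse, for control (circles) and OE mice (squares) in the other 22 clusters. Right, the number of list genes called higher with AAI in both genotypes, which was 26 in the Csmd1 cluster, 30 in InjuredPT-B and at most 10 in the other clusters.

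The summed level of the list gives a different ratio with and without Kap. The sum was 229, 296, 300 and 291, a ratio of AAI to none of 1.29 in control and 0.97 in OE mice. Without Kap, a choice made after its level was seen, the sum was 88.5, 182, 81.6 and 165, and the ratios were 2.06 and 2.03. Kap was lower with AAI by 0.30 and 0.79, and Mafg, a small Maf transcription factor, was 1.74, 4.83, 0.971 and 2.28. In the AAI mice Kap was 114 and 126 here and 110 and 101 in InjuredPT-A. It was 47.8 and 35.5 in the normal clusters of the proximal tubule, averaged. In the AAI mice the summed level of the list in the Csmd1 cluster was 43.9% and 43.2% of that in InjuredPT-A, and without Kap it was 32.3% and 28.9%. Whether these transcripts came from nuclei of this cluster or were mixed in from InjuredPT-A was not tested, since the table holds averages only.

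Some genes that rose with AAI had levels above those of InjuredPT-A. Of the 115 genes, 39 were higher in the Csmd1 cluster than in InjuredPT-A in both AAI mice. Of these 39, 27 were higher with AAI in none of the 15 other clusters outside the proximal tubule, as were 73 of all 115. The genes named in this paragraph were chosen after their values were seen. Osmr, the oncostatin M receptor, was 1.64, 2.98, 0.371 and 1.85 and highest here of all clusters, with 0.0206 and 0.0172 in InjuredPT-A of the AAI mice. Cdh11, a mesenchymal cadherin, was 0.875, 2.59, 0.769 and 2.03, against 0.201 and 0.170. F2r, the thrombin receptor, was 0.346, 0.947, 0.148 and 1.29, against 0.0229 and 0. These 3 genes were at or near 0 in InjuredPT-A. Errfi1, an inhibitor of the EGF receptor, was 9.65, 19.7, 9.53 and 14.1, against 6.35 and 7.04, and the glucocorticoid-induced factor Zbtb16 was 1.85, 3.75, 2.67 and 4.21, against 0.246 and 0.128. Of the 39, 1 was on the proximal tubule marker list. Slc5a12, a lactate transporter of the proximal tubule, was 5.33, 9.34, 6.23 and 9.26, against 4.12 and 5.14. Acadm, an enzyme of fatty acid oxidation, was 2.54, 4.29, 2.74 and 5.49, against 3.05 and 3.37. In the AAI mice the 21 proximal tubule markers other than Kap summed to 149 and 154 here and 107 and 132 in InjuredPT-A. Their sum was 420 and 353 in PT-S3-1, so a level above InjuredPT-A can still be below that of normal tubule. Endothelial markers moved as well, with 7 of 11 higher and 1 lower in control mice, and 3 of 13 higher and 2 lower in OE mice. In both genotypes 2 of 11 were higher and 0 lower. Of all genes, 11% were higher in control mice, 12.8% in OE mice and 2.48% in both. Pecam1 was 0.363, 1.46, 0.222 and 1.38 and Adgrl4 was 0.363, 3.49, 1.18 and 2.38, both far below EC-2, and the part of endothelial RNA in the other rises was not tested.

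Fewer genes differed in the same direction in both comparisons of OE with control mice than in both comparisons of AAI with none. Without AAI, 602 of 5468 genes were higher in the OE mouse (11%) and 645 were lower (11.8%). With AAI, 370 of 5550 were higher (6.67%) and 423 were lower (7.62%). Of 4537 genes compared with and without AAI, 48 were higher in OE in both (1.06%), 44 were lower in both (0.97%) and 51 went opposite ways, with a correlation across genes of 0.08.

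The genes higher in OE mice in both comparisons included Pck1, Gm42418, Cyyr1, Stox2, Spp1, Hsp90b1, Ecm1, Mpv17l and Spink1. Pck1, the gluconeogenic enzyme of the proximal tubule, was 4.18, 2.73, 9.99 and 9.72. Spp1, encoding osteopontin, was 2.09, 4.49, 5.88 and 8.38. Ecm1, a matrix protein, was 0.526, 0.414, 1.53 and 1.68, and was highest in this cluster of all 23. These genes were chosen as higher in both comparisons, and for each of these 3 both OE mice were above both control mice. No identity gene was among the 48, and identity genes were 1.81% of the genes with a mean of at least 0.5.

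The genes lower in OE mice were led by Ak5, Myh9, Matn2, Egflam, Gm19950, Vcl, Atp13a3, Ehbp1, Camk1d and Slc22a19. Of the 44, 5 were identity genes, against 1.81% of the genes with a mean of at least 0.5. Ak5, an adenylate kinase, was 5.46, 5.37, 1.78 and 2.19. Egflam, encoding the matrix protein pikachurin, was 2.53, 1.94, 0.684 and 0.778, and Matn2, encoding matrilin 2, was 1.12, 1.52, 0.172 and 0.514. The cytoskeletal genes Myh9 (nonmuscle myosin heavy chain) and Vcl (vinculin) were 5.61, 7.31, 2.88 and 3.62 and 2.51, 3.81, 1.15 and 1.74. These genes were chosen as lower in both comparisons, and for all 5 the OE mice were below both control mice. Of the 44 genes, 47.7% were over 100 kb, whereas 70.8% of the 48 higher genes were under 30 kb, against 27.9% and 33.9% of all genes compared. The 48 include 5 ribosomal protein and 5 nuclear oxidative phosphorylation genes. The part of these, and of the identity genes among the 44, in the spans was not tested.

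Some genes higher in the OE mouse without AAI belong to the ribosomal and mitochondrial groups whose sums set that column apart, so their counts describe it again. Of the 76 ribosomal protein genes, 38 of 53 compared were higher in the OE mouse without AAI and none was lower (median difference 0.61), against 6 higher and 4 lower of 53 with AAI and a median of 0.03. Of 66 nuclear oxidative phosphorylation genes compared, 33 were higher and none lower without AAI, and 9 of 60 were higher and 2 lower with AAI. Mitochondrially encoded genes were higher for 9 of 12 without AAI and for none of 11 with it. Of all genes, 11% were higher and 11.8% lower without AAI, and 6.67% and 7.62% with AAI. Hspa8, a constitutive chaperone, was 6.84, 5.58, 14.6 and 4.86. In OE mice 20 of 56 ribosomal and 27 of 65 oxidative phosphorylation genes were lower with AAI, a comparison that uses the same column. In control mice 10 of 49 and 3 of 61 were higher and 0 and 3 lower. Of all genes, 9.86% were lower with AAI in OE mice, and in control mice 11% were higher and 8.05% lower.

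The summed level of the 20 identity genes was lowest in that column, at 126, 112, 70.7 and 104. Without AAI, all 20 were below the control mouse in the OE mouse, 14 of them by at least 0.5, with a median difference of -0.78, and with AAI 1 was higher and 2 were lower, with a median of -0.10. Zeb2, a mesenchymal transcription factor, was 19.5, 17.5, 7.61 and 15.3. The fibroblast marker sum was 55.0, 53.7, 35.6 and 52.3 and the mesangial marker sum, without Csmd1, 48.3, 49.7, 37.0 and 43.8. Proximal tubule markers had their highest sum, 386, in the same column, but the 21 markers other than Kap had theirs in the control mouse, and 4 of the 22 markers were higher and 4 lower in the OE mouse without AAI. The part of mitochondrial and ribosomal RNA in this difference was not tested, and with 1 mouse it cannot be told apart from genotype.

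**Figure D5:**
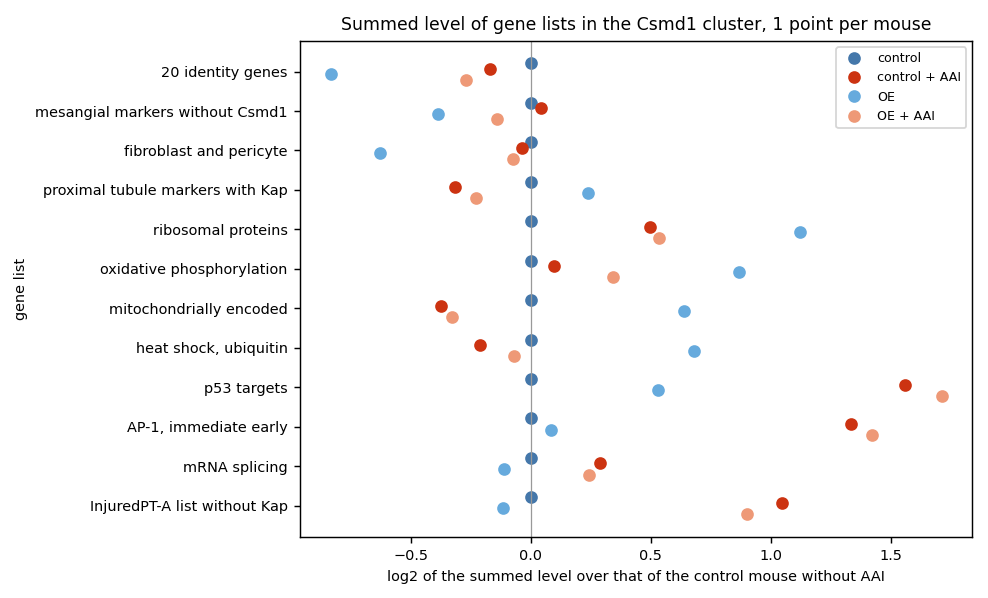
Points are the summed level of each gene list in the Csmd1 cluster of each of the 4 mice, as log2 of the ratio to the control mouse without AAI. The OE mouse without AAI (light blue) has the lowest identity sum, 0.561 of the control, and the highest ribosomal sum, 2.17 of the control, whereas the AAI mice of both genotypes are the highest for p53 targets, AP-1 genes and the InjuredPT-A list without Kap.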

How the data were processed

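Nuclei of kidney cortex from 4 male mice, 1 per condition, were profiled on the 10x platform. Per the submitters' processing notes, Cell Ranger, Seurat and the mm10 build were used. The authors counted reads on a pre-mRNA reference, filtered nuclei by gene number and mitochondrial share, and clustered them. No doublet removal is described for the RNA data. The deposited signal values are means of normalized expression over the nuclei of 1 cluster and 1 mouse. No source states the unit: no value is negative, most are fractional and each column adds up to nearly 10000, and they were taken as linear counts per 10000. The number of nuclei per column is not analysed here, and no counting interval is given. Columns were assigned to mice by their names, and cluster names by the order of sheets in the study's marker table, of which the MC sheet was not used here.

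Of 19632 rows, 23 with date-like names were left out. Differences of log2(level + 1) used a minimum of 0.5 and a threshold of 0.5. An identity gene exceeded the highest of the 22 other cluster means by 0.5. The 29 gene lists were written by hand. The members and lists were chosen with earlier results of these data known. Named genes are the 20 with the largest excess, the 10 largest rises and falls by the smaller of both genotypes or both treatments, the 5 largest of each contrast, Csmd1, Tshz2, Klf6 and Polr2a, up to 4 list members by level and 2 by change, the 10 InjuredPT-A list genes with the highest level there, and defining markers near 0. Some genes that meet this rule are not reported here. Other genes are said to be chosen after their values were seen, which also holds for Nphs1, Acta2 and Notch3 where they check a cell type. Spans came from GENCODE on GRCm38 and promoters from RefSeq on GRCm38.p6. The script was tested on simulated data. No test was run, since each condition has 1 mouse. Python 3.11.15, numpy 2.4.6, pandas 2.3.3 and matplotlib 3.10.9 were used. The alternatives were a pseudocount of 0.1, no minimum or a minimum of 2, thresholds of 0.2 and 1, centring on the median, subtracting the mean of 15 other clusters, leaving out each mouse, and other InjuredPT-A lists. The authors' chromatin data were not analysed here.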

Additional observations from a re-analysis of the deposited data

Results flagged for a closer look

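For 11 named genes of the Csmd1 cluster the change with AAI passed 0.5 in opposite directions in control and OE mice. With 1 mouse per condition the difference was not tested and every value rests in part on the OE mouse without AAI, which stood apart from the others. The value given is the log2 difference with AAI in OE mice minus that in control mice. It was 2.25 for Kirrel3, an adhesion protein, 1.43 for Kcnd3, a potassium channel subunit, and 1.56 for Cacna2d1, a calcium channel subunit, and all 3 were highest in this cluster by mean level. It was 1.56 for Smad3, a signal transducer of TGF-beta, 1.22 for Col18a1, a basement membrane collagen, and 1.25 for Ddx5, an RNA helicase. These 6 genes were lower with AAI in control and higher in OE mice.

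The other 5 genes were higher with AAI in control and lower in OE mice. The value was -1.48 for Ndufb10, a subunit of respiratory complex I, -1.25 for S100g, a calcium-binding protein, and -1.65 for Ly6e, a membrane-anchored protein. S100g was 5.41 and Ly6e 4.09 in the OE mouse without AAI, each the highest of the 4 mice. The value was -1.57 for Ube2w, a ubiquitin-conjugating enzyme, and -1.62 for Mindy2, a deubiquitinase, which were lowest in the OE mouse with AAI at 0.0729 and 0.479. Of all 4642 genes compared in both genotypes, 51 went opposite ways.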

How the results depend on the processing

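The number of identity genes was 124 with a pseudocount of 0.1, 34 with a minimum of 2 and 27 with a threshold of 1, and leaving out 1 mouse gave 66 to 84, the lowest without the control mouse and the highest without the OE mouse. Of the 82, 62 were still identity genes without the control mouse. With the minimum of 2, 60.6% of identity genes and 51.3% of all genes past that minimum were over 100 kb.

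Counts of genes higher and lower with AAI in control mice were 1609 and 1232 with a pseudocount of 0.1, 160 and 153 with a minimum of 2, 1959 and 1537 with a threshold of 0.2, and 28 and 24 with a threshold of 1. In OE mice the same settings gave 1715 and 1367, 222 and 167, 2062 and 1625, and 59 and 52. For OE against control without AAI they gave 1466 and 1624, 192 and 217, 1709 and 1923, and 40 and 50. With AAI they gave 1191 and 1335, 95 and 94, 1508 and 1697, and 8 and 7. These settings change how many genes can be called by construction. Centring on the median turned which direction had more genes: 505 higher and 543 lower with AAI in control mice, 538 and 719 in OE mice, 710 and 558 for OE against control without AAI, and 436 and 344 with AAI. It moved no count by over 1.5 times, nor did no minimum or subtracting the mean of 15 other clusters.

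The ratio of AAI to none for the InjuredPT-A list in control mice, where the ratio was 1.29, was 2.20 with 50 genes, 1.34 with 200 genes, 2.00 against the 21 other clusters, 2.04 without the 5 most abundant genes and 2.06 without Kap, an alternative chosen after seeing the data. In OE mice, where the ratio was 0.97, it was 2.50, 2.09, 1.90 and 2.03, and 1.08 with 200 genes, so its direction depends on how the list is made. Of 300 list medians under other settings, 244 moved by less than 0.2 and 56 by more.

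No paired analysis was run, since the mice carry no pairing numbers, and the values come from no test. The table gives averages without the number of nuclei behind each, so neither the spread between mice nor counting error was estimated, and a level near 0.5 rests on at most 62.8 transcripts.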

Other observations

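Other gene groups of the Csmd1 cluster are given as values. Of 61 mRNA splicing and processing genes compared in both genotypes, 3 were higher with AAI in both and none was lower, against 2.48% and 1.34% of all genes. They were Srsf10, Hnrnph2 and Tra2a, chosen after their values were seen. Srsf10, a splicing factor of the SR family, was 0.427, 1.28, 0.356 and 1.18 in the order control, control with AAI, OE, OE with AAI. The median difference of the list was 0.26 in control and 0.21 in OE mice, against 0.04 and 0.06 for all genes.

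Ubb, a ubiquitin gene chosen after its values were seen, was lower with AAI in both genotypes, at 3.20, 1.52, 5.43 and 0.998. No Notch or Wnt gene of 12, no stromal transcription factor of 11 and no PDGF ligand or receptor of 5 was called in both genotypes.

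Among the identity genes, 2 rested on the control mouse: Gm2163 was 4.10, 0.0198, 0.432 and 0, and 4930578G10Rik was 6.05, 0.0117, 0.221 and 0.179.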
